A study of Mus musculus with 374 samples.

Results

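The Gimap genes encode GTPases of immunity-associated proteins, a family of small GTP-binding proteins made mostly in lymphocytes, and the 8 members Gimap1, Gimap3, Gimap4, Gimap5, Gimap6, Gimap7, Gimap8 and Gimap9 were taken by name from a table of 19829 mouse genes. Of the 8, 7 had a row in the deposited count table, and Gimap5 is not analysed here. The identifiers are ENSMUSG00000090019 for Gimap1, ENSMUSG00000039264 for Gimap3, ENSMUSG00000054435 for Gimap4, ENSMUSG00000047867 for Gimap6, ENSMUSG00000043931 for Gimap7, ENSMUSG00000064262 for Gimap8 and ENSMUSG00000051124 for Gimap9. Single cells of 5 populations from 1 female C57BL/6 mouse aged 10-13 weeks, with no treatment or engineered allele given in the labels, were index sorted into 1 plate. Their transcripts were counted by CEL-seq2, in which a primer carrying a well barcode and a unique molecular identifier (UMI) starts reverse transcription at the poly(A) tail. From the bone marrow came 44 small B lymphocytes (B220+, B_Lymph), 95 progenitor and stem cells (Lin- Kit+ Sca1+, called LSK cells), 96 granulocytes (Mac1+ Gr1+, Grans) and 96 erythroblasts (Ter119+ CD44+ of mid to high forward scatter, EryB), and from the thymus of the same mouse came 43 small CD3+ T lymphocytes (T_Lymph). Each population is therefore 1 sample, no p-value can be given, and the 95% exact intervals below cover counting error only. Tissue and T lymphocyte identity cannot be told apart, since the T lymphocytes alone came from the thymus, and plate rows also differ between populations.

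Gimap proteins are related to the septins and bind GTP through a conserved domain at membranes of the cell. They are best known from lymphocyte survival: rats and mice without a working Gimap5 lose T cells, Gimap1 is needed by mature B and T cells, and several members have been tied to proteins of the Bcl2 family that set the threshold of apoptosis. In vertebrates the genes lie side by side in a single cluster, so the members can be compared with one another at 1 locus.

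In the GENCODE M21 annotation of GRCm38 the cluster spans chr6:48647234-48770851, a stretch of 123.6 kb, with 6 members on the forward strand and 2, Gimap6 and Gimap3, on the reverse strand. Which build the counts were made on is not given in the sources used here, and these positions are those of the annotation. The 250 bases before the RefSeq start of 4 members (GRCm38.p6) are printed, because these 4 form the contrast on which the results turn: Gimap4 and Gimap3, seen mainly in T lymphocytes, and Gimap6 and Gimap1, seen in T lymphocytes and LSK cells. For Gimap6 and Gimap1 the B lymphocytes were not separated from the LSK cells beyond counting error. Capitals mark the letters AGGAAG, a form of ETS factor motifs and not the only form, and TGTGGT, a core of RUNX motifs, on either strand. Positions are chr6:48684328-48684577 on the forward strand for Gimap4, chr6:48770852-48771101 on the reverse strand for Gimap3, chr6:48708245-48708494 on the reverse strand for Gimap6 and chr6:48738797-48739046 on the forward strand for Gimap1.
Gimap4: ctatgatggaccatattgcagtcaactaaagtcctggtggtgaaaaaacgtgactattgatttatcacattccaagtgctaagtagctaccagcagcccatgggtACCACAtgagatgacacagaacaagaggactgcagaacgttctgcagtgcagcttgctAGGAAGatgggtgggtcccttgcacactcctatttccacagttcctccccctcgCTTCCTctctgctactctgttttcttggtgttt
Gimap3: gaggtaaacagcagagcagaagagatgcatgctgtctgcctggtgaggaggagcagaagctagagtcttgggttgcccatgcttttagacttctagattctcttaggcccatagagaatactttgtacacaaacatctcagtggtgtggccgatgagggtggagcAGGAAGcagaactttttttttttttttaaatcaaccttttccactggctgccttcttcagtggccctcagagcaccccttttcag
Gimap6: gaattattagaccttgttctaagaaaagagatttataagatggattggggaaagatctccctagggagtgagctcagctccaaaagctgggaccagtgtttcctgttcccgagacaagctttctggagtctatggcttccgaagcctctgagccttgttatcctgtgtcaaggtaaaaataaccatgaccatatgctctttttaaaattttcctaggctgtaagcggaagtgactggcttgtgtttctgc
Gimap1: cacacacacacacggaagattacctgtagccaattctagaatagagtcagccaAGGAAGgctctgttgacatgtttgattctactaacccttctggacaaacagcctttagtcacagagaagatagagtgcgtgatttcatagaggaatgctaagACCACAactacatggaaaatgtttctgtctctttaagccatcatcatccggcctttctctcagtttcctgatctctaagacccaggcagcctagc

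By AGGAAG and TGTGGT these windows do not sort into the 2 pairs. Gimap4 held AGGAAG at 2 positions and TGTGGT at 1, Gimap3 held AGGAAG at 1 position, Gimap1 held both at 1 position each, and Gimap6 held neither. The letters CGGAAG, which also hold GGAA, are in the printed windows of Gimap6 and Gimap1 and not in those of Gimap4 and Gimap3. They were not among the letters searched over all windows, so the absence of AGGAAG from Gimap6 is not an absence of ETS motifs. Over all 8 members, whose windows all matched by symbol, AGGAAG was in 7 (for Gimap8 in 1 of its 2 windows), TGTGGT in 3, the E-box letters CANNTG in 6, the TCF/LEF letters CTTTGA in 0 and the GATA letters AGATAA in 0. Among 32536 promoter windows of the same length the shares holding each were 29.6%, 14.0%, 66.2%, 13.9% and 9.97%. In Gimap4 the TGTGGT match overlaps a CANNTG match. The motifs were chosen after the counts had been seen, a match is a description of letters and not a bound site, and absence says only that the letters are not in the window.

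Depth differed between populations. The median well held 4347 mouse-gene UMIs in the T lymphocytes, 3028.5 in the B lymphocytes, 7959 in the LSK cells, 3880 in the granulocytes and 6113.5 in the erythroblasts, with sums of 135808 to 834812 per population, and 9 columns of the table that match no labelled well were not used. All labelled wells were kept whatever their depth. The shallowest held 426 mouse-gene UMIs in the T lymphocytes, 485 in the B lymphocytes, 2003 in the LSK cells, 8 in the granulocytes and 466 in the erythroblasts. No barcode was shared by 2 wells. The sort labels were reflected in the markers: the 10 T lymphocyte markers summed to 6298 UMIs per 1000000 mouse-gene UMIs (CPM) in the T lymphocytes and to 58.5 to 95.7 CPM elsewhere, the B lymphocyte markers 9558 CPM in the B lymphocytes and 122 to 309 CPM elsewhere, and the LSK cell markers 3527 CPM in those cells and 135.0 to 229.5 CPM elsewhere. The granulocyte markers were at 151626 CPM in the granulocytes and 1720 to 6693 CPM elsewhere, and the erythroblast markers at 246693 CPM in the erythroblasts and 13280 to 29188 CPM elsewhere, the latter a larger share of the level in their own population than for the T markers. Of the immature thymocyte genes with a row, Rag1, Rag2 and Arpp21 had no UMI in the thymic T lymphocytes, and Dntt had 11 (54.9 CPM). Cd3g, a defining T marker, was at 0 UMIs in LSK cells, granulocytes and B lymphocytes and at 2 in erythroblasts. Trac, the T marker with the most UMIs, was at 14, 9, 2 and 9 UMIs in that order. The T marker sums outside the T lymphocytes were 13 to 59 UMIs. The T marker level in the other populations is set beside the Gimap level below, as a description: the markers did not keep 1 ratio, since in the LSK cells Cd4 was at 20.4 CPM against 264.5 in the T lymphocytes and Cd8a at 1.20 against 539, and whether their UMIs were RNA of T lymphocytes was not tested. Of the B lymphocyte wells, B2 had CD3 fluorescence of 7905, within the 4889 to 25573 (arbitrary units) of the T lymphocyte wells, with 36 UMIs on B markers and 0 on T markers, and A8 had Gr1 fluorescence of 15209 with 519 UMIs on granulocyte markers and 0 on B markers.

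As a family, Gimap transcripts were highest in the T lymphocytes, intermediate in the B lymphocytes and LSK cells, and low in the granulocytes and erythroblasts. The summed members gave 400 UMIs in the T lymphocytes, or 1996 CPM (interval 1805 to 2202). In the B lymphocytes 62 UMIs made 456.5 CPM (350.0 to 585), and in the LSK cells 359 UMIs made 430.0 CPM (387 to 477). The granulocytes gave 34 UMIs and 84.3 CPM (58.4 to 118), and the erythroblasts 22 UMIs and 33.0 CPM (20.7 to 50.0). In this order each step is wider than counting error except that from the B lymphocytes to the LSK cells, whose ratio was 1.06 (0.80 to 1.39). T lymphocytes exceeded B lymphocytes 4.37-fold (3.34 to 5.81) and LSK cells 4.64-fold (4.02 to 5.37), and LSK cells exceeded granulocytes 5.10-fold (3.59 to 7.49). Without well B2 the B lymphocytes were at 413 CPM and without A8 at 464.7 CPM. Size factors from scran lowered the log2 ratio of LSK cells over granulocytes from 2.35 to 1.52, and leaving out Gimap6 raised that of T lymphocytes over LSK cells from 2.21 to 2.83.

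The level outside the T lymphocytes was set beside the T marker level in the same wells. Relative to the T lymphocytes, the family stood at 22.9% (17.2% to 30.0%) in the B lymphocytes and 21.5% (18.6% to 24.9%) in the LSK cells, where the T markers stood at 1.52% (0.81% to 2.61%) and 1.12% (0.85% to 1.46%). In the granulocytes the family was at 4.22% (2.88% to 6.00%) against 1.38% (0.95% to 1.93%) for the T markers, and in the erythroblasts at 1.65% (1.02% to 2.54%) against 0.93% (0.66% to 1.28%). The erythroblast intervals overlap and the granulocyte intervals do not. In the wells that held no T marker UMI at all, the family was at 495 CPM (366 to 655) over 32 B lymphocyte wells, 449.6 CPM (391 to 514) over 58 LSK cell wells, 72.6 CPM (43.7 to 113) over 64 granulocyte wells and 33.6 CPM (18.4 to 56.5) over 64 erythroblast wells. Each of these levels lay within the interval over all wells of its population.

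**Figure D1:**
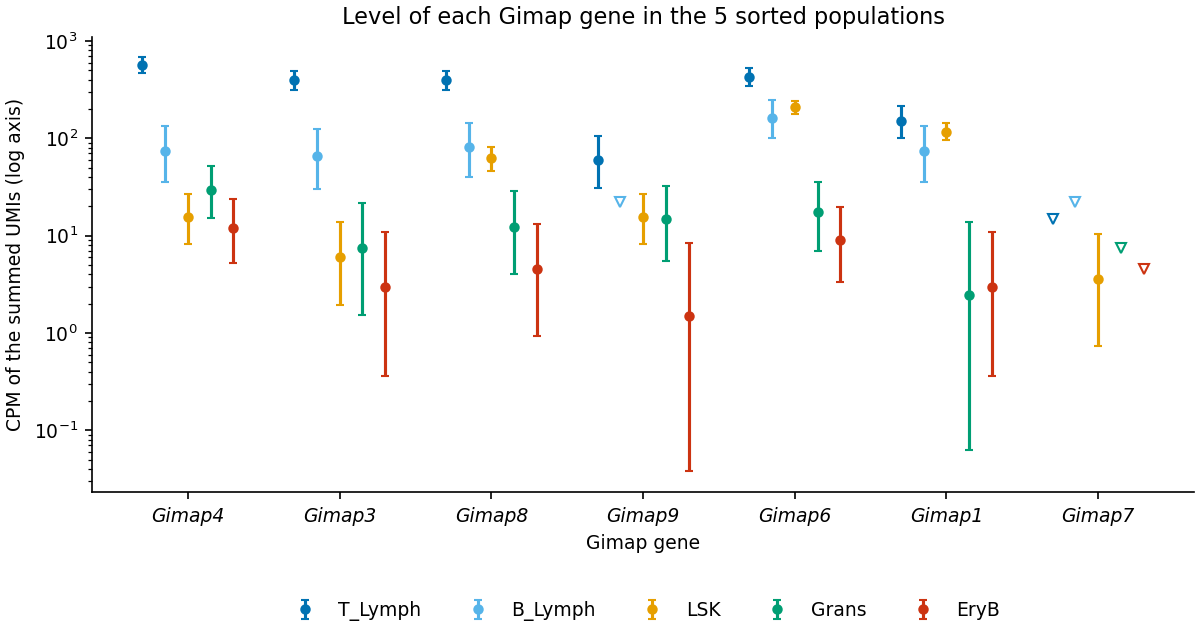
CPM of the summed UMIs of each Gimap gene with a row (log axis), in the 5 sorted populations, where points are sums over all wells of a population, bars are 95% exact Poisson intervals, and open triangles stand at the CPM of 3 UMIs where a gene had no UMI. For Gimap4 and Gimap3 the T_Lymph points lie more than 10-fold above those of LSK, whereas the Gimap1 points of T_Lymph, B_Lymph and LSK have overlapping intervals.

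The members differed in which populations they marked. UMIs of CEL-seq2 count captured 3' ends and are not divided by transcript length, so values are compared for 1 gene across populations and not between genes. Gimap4 and Gimap3 were high in the T lymphocytes and low in the LSK cells, Gimap6 and Gimap1 were high in both, and Gimap8 lay between. In T lymphocytes over LSK cells, 3 of the 6 members with at least 10 UMIs in the pair were at least 4-fold higher (Gimap3, Gimap4 and Gimap8), against 3.48% of 9911 genes under the same rule, and 0 were at least 4-fold lower, against 2.45%. The other 2 of the 8 members did not enter, Gimap5 for want of a row and Gimap7 with 3 UMIs.

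Gimap4, whose product has been linked to the pace of T cell apoptosis, had 113 UMIs in the T lymphocytes, 10 in the B lymphocytes, 13 in the LSK cells, 12 in the granulocytes and 8 in the erythroblasts. These sums correspond to 564, 73.6, 15.6, 29.7 and 12.0 CPM. The T lymphocytes stood 36.2-fold (20.3 to 70.1) above the LSK cells and 7.66-fold (4.01 to 16.4) above the B lymphocytes. The LSK cells were not above the granulocytes, with a ratio of 0.52 (0.22 to 1.26). In the LSK cells Gimap4 was at 2.76% (1.43% to 4.92%) of its T lymphocyte level, an interval that just overlaps that of the T markers in the same wells. The granulocytes were at 5.27% (2.65% to 9.58%) of the T lymphocyte level, above the interval of the T markers, from 12 UMIs spread singly over 12 wells.

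Gimap3, the nearest relative of Gimap5 in the mouse and known from the segregation of mitochondrial genomes, had 80 UMIs in the T lymphocytes, 9 in the B lymphocytes, 5 in the LSK cells, 3 in the granulocytes and 2 in the erythroblasts. The T lymphocytes were at 399 CPM (316.5 to 497), the B lymphocytes at 66.3 CPM (30.3 to 126), and the LSK cells at 5.99 CPM (1.95 to 14.0). The ratio of T lymphocytes to LSK cells was 66.7 (27.4 to 211), the widest of the family in that pair. In the LSK cells the gene stood at 1.5% (0.47% to 3.65%) of its T lymphocyte level, an interval that holds the 1.12% of the T markers. Whether these 5 UMIs came from the LSK cells themselves was not tested. Gimap3 and Gimap5 transcripts share stretches of 50 identical bases, which make up 7.52% of those of Gimap3 and 4.53% of those of Gimap5, and reads from these could not be told apart. No other pair of members shared a stretch of that length.

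Gimap8, a member with more than a single GTP-binding domain, had 79 UMIs in the T lymphocytes, 11 in the B lymphocytes, 52 in the LSK cells, 5 in the granulocytes and 3 in the erythroblasts. At 394 CPM (312 to 491) the T lymphocytes were 6.33-fold (4.40 to 9.16) above the 62.3 CPM of the LSK cells and 4.87-fold (2.58 to 10.1) above the 81.0 CPM of the B lymphocytes. The LSK cells in turn exceeded the granulocytes 5.03-fold (2.02 to 16.1). Between the T lymphocytes and the granulocytes, the B lymphocytes and LSK cells were not separated beyond counting error (ratio 1.30, 0.61 to 2.52).

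Gimap6, whose product binds a Gabarap-family protein of the autophagy pathway, gave 86 UMIs in the T lymphocytes, 22 in the B lymphocytes, 175 in the LSK cells, 7 in the granulocytes and 6 in the erythroblasts. The levels were 429 CPM (343 to 530), 162 CPM (102 to 245), 209.6 CPM (180 to 243), 17.4 CPM (6.97 to 35.7) and 9.00 CPM (3.30 to 19.6). T lymphocytes exceeded LSK cells only 2.05-fold (1.56 to 2.67), and LSK cells exceeded granulocytes 12.1-fold (5.74 to 30.5) and erythroblasts 23.3-fold (10.5 to 64.3). The B lymphocytes and LSK cells did not separate, with a ratio of 0.77 (0.47 to 1.21).

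Gimap1, required for the survival of mature lymphocytes, had 30 UMIs in the T lymphocytes, 10 in the B lymphocytes, 98 in the LSK cells, 1 in the granulocytes and 2 in the erythroblasts. At 150 CPM (101 to 214) and 117 CPM (95.3 to 143), the T lymphocytes and LSK cells were not separated beyond counting error (ratio 1.28, 0.82 to 1.94), nor were the T and B lymphocytes (2.03, 0.97 to 4.66). Against the granulocytes the LSK cells were 47.4-fold higher (8.31 to 1890), an interval as wide as the single granulocyte UMI makes it. Part of the Gimap1 signal is uncertain: 1107 of its 3073 annotated exon bases overlap the antisense gene Gimap1os, which had 9 UMIs in the T lymphocytes and 13 in the LSK cells, and whether strand was used in counting is not given in the sources used here.

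Gimap9 and Gimap7 were sparse. Gimap9 had 12 UMIs in the T lymphocytes, 0 in the B lymphocytes, 13 in the LSK cells, 6 in the granulocytes and 1 in the erythroblasts. Its 59.9 CPM in the T lymphocytes was 3.85-fold (1.60 to 9.14) above the LSK cells, which were not separated from the granulocytes (ratio 1.05, 0.37 to 3.36), and at least 2.71-fold above the B lymphocytes, whose 0 UMIs were set to a floor of 3. Gimap7, thought to act by pairing with other members, had 3 UMIs in 3 LSK cell wells and none in any other population, where 3 UMIs would be 4.50 to 22.1 CPM, so no fold is given.

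Against the B lymphocytes, 3 of 6 members were at least 4-fold higher in the T lymphocytes (Gimap3, Gimap4 and Gimap8), beside 4.06% of 5441 genes. Against the granulocytes and the erythroblasts, 6 of 6 were, beside 14.4% and 21.0% of the genes tested. Within that count Gimap9 over granulocytes was at the edge of the rule, at 4.03-fold (1.40 to 13.1). B lymphocytes were at least 4-fold above LSK cells for 2 of 6 members, Gimap3 at 11.1-fold (3.33 to 42.0) and Gimap4 at 4.73-fold (1.86 to 11.7), beside 2.96% of 9710 genes, and none was 4-fold lower, beside 2.06%. Without well B2, which held 3 of the 10 Gimap4 UMIs, the Gimap4 ratio was 3.38 (1.14 to 9.10) and the count was 1 of 6, while Gimap3 was at 10.0-fold (2.89 to 39.0). LSK cells were at least 4-fold above granulocytes for 3 of 5 members, beside 15.1% of genes, and above erythroblasts for 3 of 5, beside 25.9%, and in both comparisons these were Gimap1, Gimap6 and Gimap8. Gimap9 over erythroblasts was at 10.4-fold (1.56 to 441) from 13 UMIs and 1, and did not pass with the single UMI set to 3. B lymphocytes were at least 4-fold above granulocytes for 4 of 5 members, all but Gimap4, beside 8.7% of genes. Gimap3 did not enter the 2 comparisons of LSK cells with granulocytes and erythroblasts, nor Gimap9 that of B lymphocytes with granulocytes. Over a population of larger UMI total, a member with at least 10 UMIs in the first population and at most 3 in the other had to be called. This held for T lymphocytes over LSK cells, granulocytes and erythroblasts, and for B lymphocytes over LSK cells and granulocytes. It did not hold for T over B lymphocytes, where Gimap9 with 12 UMIs against 0 was not called, at a bound of 2.71-fold.

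**Figure D2:**
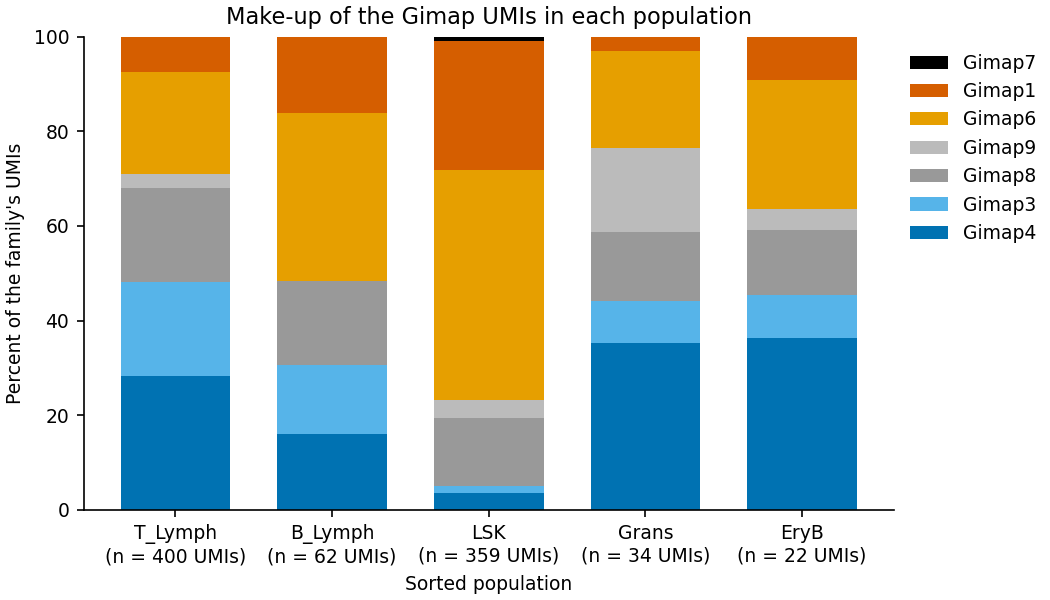
Make-up of the Gimap UMIs in each sorted population, as the percent of the family's UMIs on each gene; the number of UMIs behind each bar is given under it. Gimap6 and Gimap1 (orange and red) take 76.0% of the bar of the LSK cells and 29.0% of that of T_Lymph, and Gimap4 and Gimap3 (blue) 5.01% and 48.2%.

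The make-up of the family differed between populations. Gimap6 and Gimap1 together took 76.0% (71.3% to 80.4%) of the 359 Gimap UMIs of the LSK cells, 51.6% (38.6% to 64.5%) of the 62 in the B lymphocytes and 29.0% (24.6% to 33.7%) of the 400 in the T lymphocytes. Gimap4 and Gimap3 took 5.01% (3.00% to 7.81%), 30.6% (19.6% to 43.6%) and 48.2% (43.3% to 53.3%). In both shares the B lymphocytes lay between the other two, although their family CPM and that of the LSK cells were not separated beyond counting error, and the B and T lymphocyte intervals for Gimap4 and Gimap3 just overlap. In the granulocytes and erythroblasts Gimap4 and Gimap3 took 44.1% (27.2% to 62.1%) of 34 UMIs and 45.5% (24.4% to 67.8%) of 22, shares whose intervals hold that of the T lymphocytes and not that of the LSK cells. The granulocytes differed from the T lymphocytes in Gimap9, which took 17.65% (6.76% to 34.5%) from 6 UMIs, against 3.00% (1.56% to 5.18%). In the erythroblasts the Gimap9 share was 4.55% (0.12% to 22.8%), from 1 UMI.

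A ratio of 2 members within a population cancels the depth and the scaling of that population, and its odds ratio between populations cancels the capture of each gene. The pairs were chosen with the levels above known, and their ratios restate the same sums as a description. The LSK cells held 13.5 Gimap6 UMIs for each Gimap4 UMI and the T lymphocytes 0.76, an odds ratio of 17.5 (9.21 to 36.0). For Gimap6 over Gimap3 the odds ratio was 32.2 (12.6 to 106) and for Gimap1 over Gimap4 it was 27.9 (13.4 to 62.0). Gimap8 gave smaller odds ratios, 5.68 (2.82 to 12.2) over Gimap4 and 3.08 (1.96 to 4.89) for Gimap6 over Gimap8. Between Gimap1 and Gimap6, by contrast, the ratio was 0.56 in the LSK cells and 0.35 in the T lymphocytes, an odds ratio of 1.60 whose interval (0.97 to 2.70) includes 1. Gimap6 over Gimap4 was 2.20 in the B lymphocytes, 2.88-fold (1.23 to 7.18) that of the T lymphocytes in odds, and the LSK cells were 6.04-fold (2.11 to 17.1) above the B lymphocytes.

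**Figure D3:**
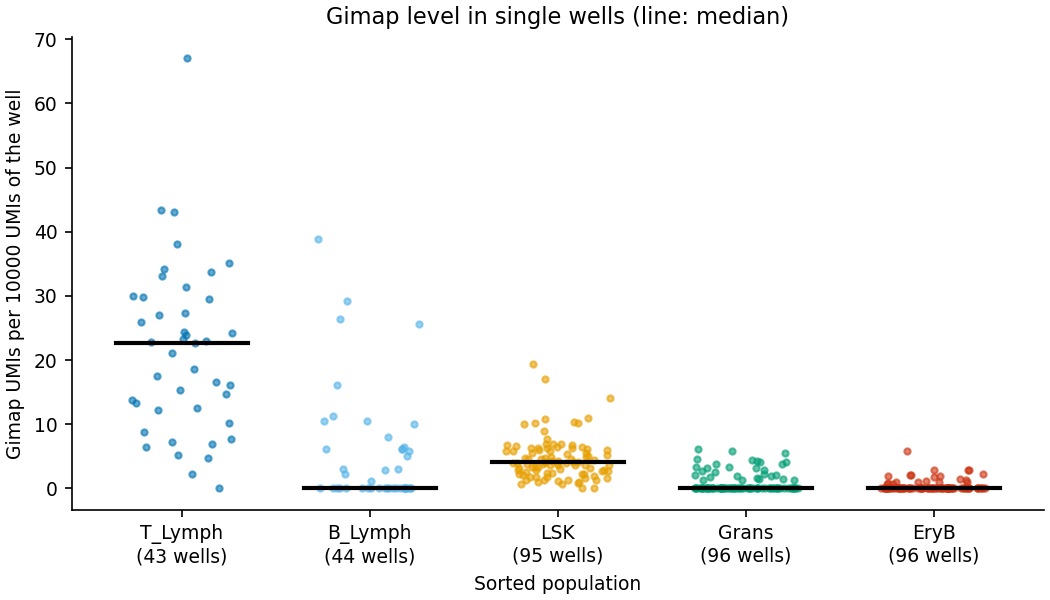
Gimap UMIs (all members with a row) per 10000 UMIs on mouse genes in each well, by sorted population, with horizontal position within a population random; each point is 1 well and the black line is the median. T_Lymph wells are spread around a median of 22.7 and LSK wells around 4.03, whereas most wells of the other 3 populations are at 0. In B_Lymph 6 wells, B2 among them, hold 59.7% of the B lymphocyte Gimap UMIs.

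Single wells showed whether a level came from many cells or a few. A Gimap UMI was found in 42 of 43 T lymphocyte wells, 97.7% (87.7% to 99.9%), and in 93 of 95 LSK cell wells, 97.9% (92.6% to 99.7%). It was found in 21 of 44 B lymphocyte wells, 47.7% (32.5% to 63.3%), in 29 of 96 granulocyte wells, 30.2% (21.2% to 40.4%), and in 20 of 96 erythroblast wells, 20.8% (13.2% to 30.3%), the last being the population of lowest Gimap level, at a median depth of 6113.5 UMIs. The only T lymphocyte well without a Gimap UMI had 426 UMIs in all. When every well was thinned to 2000 UMIs, leaving out 1, 11, 0, 10 and 1 shallower wells, the expected shares were 94.8% in the T lymphocytes, 35.0% in the B lymphocytes, 58.6% in the LSK cells, 18.0% in the granulocytes and 7.23% in the erythroblasts. The near-equal shares of T lymphocytes and LSK cells therefore separated at matched depth.

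The members followed their sums at matched depth. Gimap4 was expected in 62.1% of the thinned T lymphocyte wells, 9.70% of the B lymphocyte wells, 3.00% of the LSK cell wells, 8.52% of the granulocyte wells and 2.17% of the erythroblast wells. Gimap6 was expected in 59.3%, 17.7%, 34.3%, 2.60% and 2.23%, and Gimap1 in 24.7%, 9.03%, 21.5%, 0.42% and 0.82%. For Gimap1 the T lymphocytes and LSK cells thus stayed close after thinning, whereas for Gimap4 the LSK cells were near the erythroblast share.

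T lymphocytes commonly held several members at once. At least 4 of the members were seen in 29 of 43 T lymphocyte wells, 9 of 95 LSK cell wells, 2 of 44 B lymphocyte wells, 0 of 96 granulocyte wells and 0 of 96 erythroblast wells, and a count of 0 of 96 allows a share of up to 3.77% (exact binomial). At least 2 were seen in 40, 64, 13, 4 and 1 wells in that order. These counts rise with depth and level, and the LSK cell wells were deeper than those of the T lymphocytes. The median well held 9 Gimap UMIs in the T lymphocytes (0 to 19) and 3 in the LSK cells (0 to 14). In the B lymphocytes the median was 0 (0 to 8), and 6 wells with at least 4 Gimap UMIs, a cut chosen after the values were seen, held 37 of the 62 UMIs. All 6 had B220 fluorescence above the median of the B lymphocyte wells. Among them was well B2, of high CD3 fluorescence, with 7 of these UMIs and B220 of 1373 against that median of 1077.5.

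**Figure D4:**
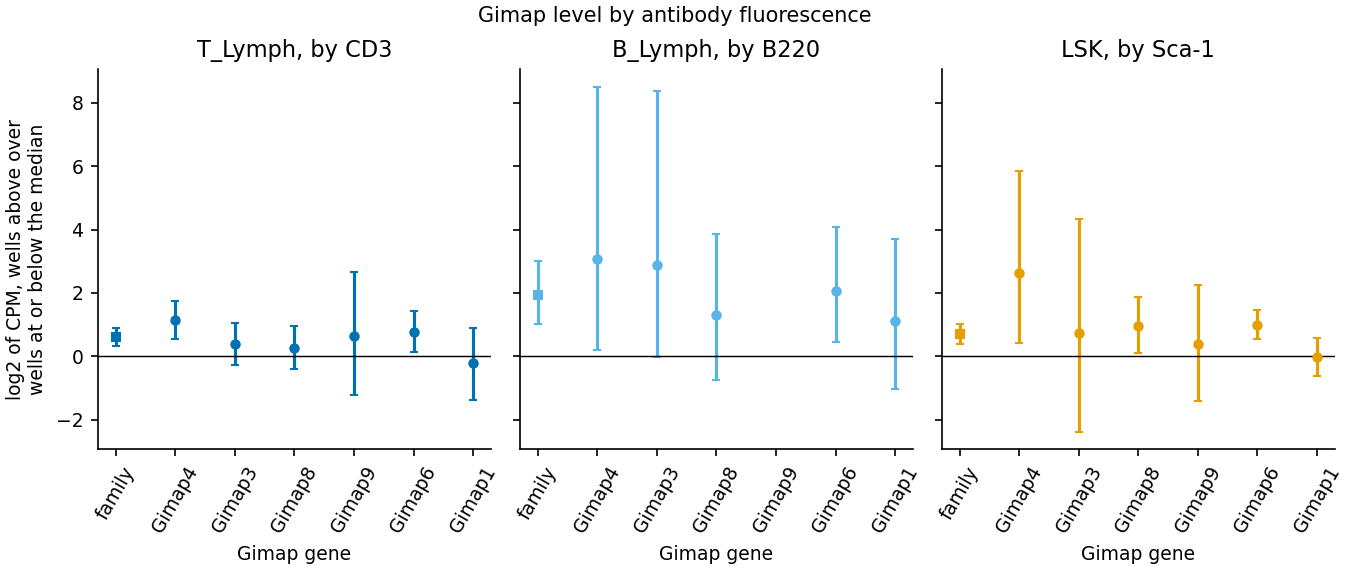
Log2 ratio of the CPM in the wells above the median antibody fluorescence over the wells at or below it, for the family sum (squares) and each Gimap gene (circles) in 3 sorted populations. The family ratio is above 0 in all 3 panels, while the Gimap1 interval crosses 0 in each; bars are 95% exact intervals for counting error, and genes with no UMI in either set of wells, above or at and below the median, are left out.

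The index fluorescence recorded at the sort divided the wells of a population, and in each of the 3 populations divided here the wells above the median had the lower median depth. CD3 rises on thymocytes as they mature, B220 is brighter on mature than on immature B cells of the marrow, and Sca-1 is a gate marker of the LSK cells. In the T lymphocytes, the 21 wells above the median CD3 fluorescence held 231 Gimap UMIs and 2442 CPM, and the 22 wells at or below it held 169 UMIs and 1597 CPM, a ratio of 1.53 (1.25 to 1.88). Gimap4 showed the largest ratio, at 2.21 (1.48 to 3.35), and Gimap6 was at 1.71 (1.09 to 2.72), while the intervals of Gimap1, Gimap3, Gimap8 and Gimap9 included 1. The T markers themselves had a ratio of 0.97 (0.87 to 1.08) between the same 2 sets of wells, the mature lymphocyte genes one of 1.20 (1.02 to 1.41) and the immature thymocyte list, with 3 and 8 UMIs, one of 0.42 (0.07 to 1.75), and the median depths were 4185 and 4708.5 UMIs.

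In the B lymphocytes the contrast was wider. The 22 wells above the median B220 fluorescence held 50 Gimap UMIs, or 709 CPM, and the other 22 wells 12 UMIs, or 184 CPM, a ratio of 3.86 (2.03 to 7.96). Without well B2 it was 3.45 (1.79 to 7.18). The direction was shared by the 5 members with a UMI in these wells, from 2.16 for Gimap1 to 8.33 for Gimap4, but only the intervals of Gimap6 (4.17, 1.37 to 16.9) and Gimap4 (1.16 to 365) excluded 1. In the same 2 sets the mature B cell genes (Ms4a1, Fcer2a, Cr2, H2-Aa and Cd74) had a ratio of 6.52 (4.86 to 8.89) and the immature B cell genes (Vpreb1, Vpreb3 and Igll1) one of 0.64 (0.48 to 0.86). The mature lymphocyte genes had a ratio of 1.12 (0.88 to 1.41), T markers held 6 and 7 UMIs in these sets, and the median depths were 2792.5 and 3269.5 UMIs.

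In the LSK cells, the 47 wells above the median Sca-1 fluorescence had 541 Gimap CPM and the 48 others 331, a ratio of 1.63 (1.32 to 2.03). The members split here as well. Gimap6 went from 143 to 284 CPM with Sca-1 (ratio 1.99, 1.45 to 2.75) and Gimap8 from 43.1 to 83.8 CPM (1.94, 1.07 to 3.62), whereas Gimap1 was at 118 and 117 CPM (0.99, 0.65 to 1.501). Gimap4 had 11 of its 13 UMIs in the wells above the median (6.16, 1.34 to 57.2). In the same 2 sets the T markers had a ratio of 1.88 (1.08 to 3.35), from 37 and 22 UMIs, and the immature thymocyte list, most of it Dntt, one of 2.08 (1.67 to 2.62). The mature B cell genes had a ratio of 2.08 (1.05 to 4.31), from 26 and 14 UMIs, while the mature lymphocyte genes ran the other way, at 0.72 (0.59 to 0.88), from 171 and 265 UMIs. The median depths were 7697 and 8182.5 UMIs. The part of these lists and of depth in the Gimap difference was not tested.

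**Figure D5:**
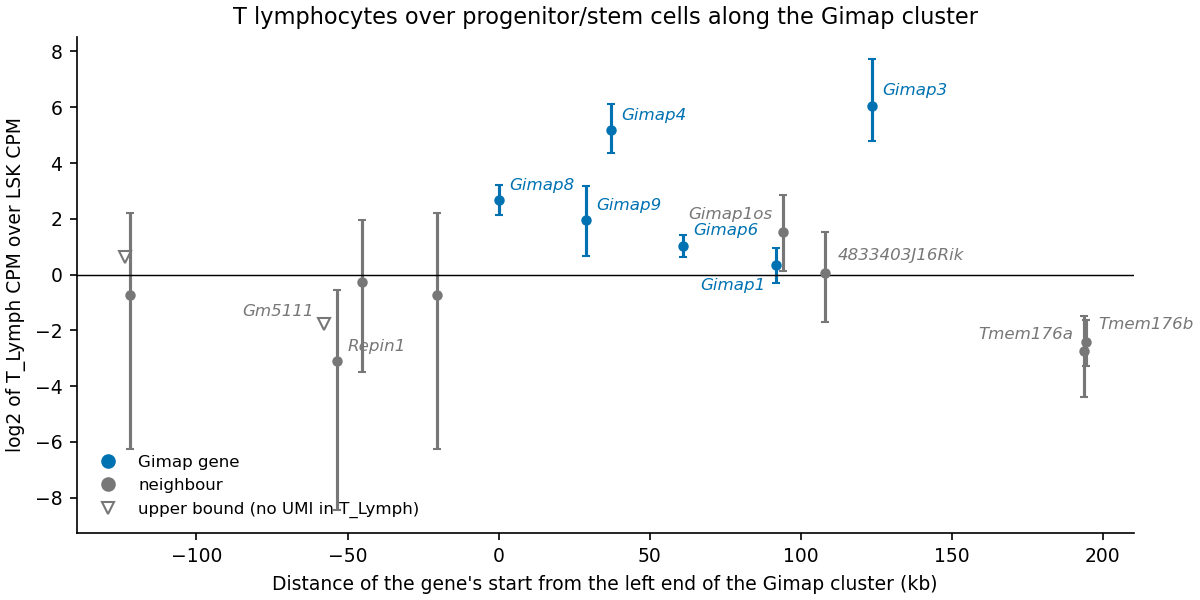
Log2 of the T lymphocyte CPM over the LSK cell CPM for genes with a row in and around the Gimap cluster, by the distance of the gene's start from the left end of the cluster in kb. Bars are 95% exact intervals, open triangles are upper bounds for genes without a UMI in the T lymphocytes, and Gimap7 has no ratio. The points of the Gimap genes (blue) lie above 0, with the bar of Gimap1 crossing it, and Tmem176a and Tmem176b, on the right, lie below it.

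Position in the cluster did not order the members. Along the chromosome the log2 ratios of T lymphocytes over LSK cells ran 2.66 for Gimap8, 1.94 for Gimap9, 5.18 for Gimap4, 1.03 for Gimap6, 0.35 for Gimap1 and 6.06 for Gimap3, so the 2 members with the highest ratios, Gimap4 and Gimap3, enclose the 2 with the lowest. Within 200 kb of the cluster, 32 other genes are annotated and 10 had a row, 7 of them with at least 10 UMIs in the pair. Of these 7, 0 were at least 4-fold higher in the T lymphocytes, beside 3.48% of all genes tested. With so few genes a count of 0 is near that share. At least 4-fold lower were 2, beside 2.45%: Tmem176b, with 14 UMIs in the T lymphocytes against 309 (log2 ratio -2.41), and Tmem176a, with 5 against 141 (-2.76), a pair of membrane protein genes. Repin1, a zinc finger gene, had 1 UMI against 36, and Gm5111 had 0 against 43, both with fewer than 3 UMIs in the T lymphocytes. Inside the cluster, 4833403J16Rik had 5 and 20 UMIs, with a ratio of 1.04 (0.31 to 2.86), and the antisense Gimap1os had a ratio of 2.88 (1.09 to 7.29).

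The genes whose profile over the 5 populations was most like that of the family sum, by the overlap of their shares of summed CPM (1 for identical profiles) among 3902 genes with at least 100 UMIs, were Il2rg at 0.957, Pde3b at 0.931, B4galnt1 at 0.927, Shisa5 at 0.926 and Nlrc5 at 0.925. Il2rg, the shared chain of the receptors for IL-2, IL-7 and other lymphocyte cytokines, had 584, 147, 125, 52.0 and 18.0 CPM in the T lymphocytes, B lymphocytes, LSK cells, granulocytes and erythroblasts. Nlrc5, an activator of MHC class I genes, had 190, 29.4, 58.7, 9.91 and 7.50 CPM. The ranking rests on 5 values that share libraries and depth, and a Pearson correlation of log2(CPM + 10) placed 1 of the same 5 genes among its top 5. Of the members, Gimap8 overlapped the family sum most, at 0.954, with its own UMIs inside that sum.

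Other genes of lymphocyte biology showed where the members stood. The counts of this list and of those below stand beside the shares over all genes tested. These shares were 3.48% at least 4-fold higher and 2.45% lower in T lymphocytes over LSK cells. In B lymphocytes over LSK cells they were 2.96% and 2.06%. Of 8 mature lymphocyte genes, 7 were at least 4-fold higher in T lymphocytes than in LSK cells and 0 lower, with a median log2 ratio of 3.39 against -0.08 over all genes tested. Satb1, a chromatin organizer of T cells, had 1113 and 102 CPM, Btg1, an antiproliferative gene, 374 and 38.3 CPM, and Klf2, a factor of quiescent lymphocytes, 229.5 and 10.8 CPM. In B lymphocytes 6 of the 8 were higher, with a median of 3.86 against -0.04, and Satb1, at 95.7 CPM in the B lymphocytes, did not pass. Il7r, the receptor for the survival factor IL-7, singled out after its values were seen, had 244.5 CPM in the T lymphocytes, 375.5 in the B lymphocytes and 7.19 in the LSK cells. Of the Gimap genes, Gimap3 and Gimap4 alone were at least 4-fold above the LSK cells in both lymphocyte populations, Gimap4 not without well B2.

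Of 12 genes of Gimap partners and survival, 9 had a row, and 0 of these were at least 4-fold higher or lower in T lymphocytes over LSK cells, with a median log2 ratio of 0.13. Mcl1, an apoptosis inhibitor, was at 389, 464 and 194 CPM in the T lymphocytes, B lymphocytes and LSK cells. Gabarap and Map1lc3b, of the autophagy pathway, were at 185, 228 and 171 CPM and at 69.9, 162 and 129 CPM, and Ctnnb1, which encodes beta-catenin, at 215, 147 and 291 CPM. Bcl2, a further apoptosis inhibitor singled out after its values were seen, was at 379, 73.6 and 142.5 CPM. In B lymphocytes over LSK cells 1 of 9 was higher, Bcl2l1, the inhibitor Bcl-xL, with 103 and 21.6 CPM, and the median log2 ratio was 0.32.

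Of 16 other immune GTPases, 15 had a row and entered both comparisons. In the T lymphocytes 3 were at least 4-fold above the LSK cells, namely Igtp and Gbp4, interferon-inducible GTPases with 264.5 and 339 CPM against 43.1 and 16.8, and Rhoh, a GTPase of blood cells with 399 against 81.5. Those with the most UMIs did not pass: Rac2 had 873 and 335 CPM, Cdc42 449 and 422, Ran 145 and 253, and Rap1b 334 and 212. In the B lymphocytes 1 was higher, Rhoh at 508 CPM, and the list medians were 0.81 in T lymphocytes and -0.09 in B lymphocytes.

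Stage markers of T and B cell development were read in the same way. Of 6 immature thymocyte genes 4 had a row, and Dntt, which adds bases at antigen receptor joints, was at 54.9 CPM in the T lymphocytes, 36.8 in the B lymphocytes and 389 in the LSK cells, at least 4-fold lower in both lymphocyte populations, while Rag1, of the recombinase, was higher in the B lymphocytes with 655 against 5.99 CPM. Of the 5 mature B cell genes 4 entered B lymphocytes over LSK cells and all 4 were higher, led by Cd74, the invariant chain of MHC class II, with 1819 and 12.0 CPM, and 0 of 2 were higher in T lymphocytes over LSK cells. Of the 3 immature B cell genes Vpreb3, also one of the B lymphocyte markers, entered alone and was higher in both. It was at 44.9 CPM (T lymphocytes), 1480.0 CPM (B lymphocytes) and 10.8 CPM (LSK cells). In the T lymphocytes it was at the edge of the rule, with a log2 ratio of 2.06 from 9 UMIs against 9. The granulocytes, at 29.7 CPM, and the erythroblasts, at 33.0 CPM, were near the T lymphocyte level.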

How the data were processed

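The authors deposited UMI counts per gene and well, made with scPipe (barcode demultiplexing, alignment, assignment to exons and UMI deduplication) and not normalized. Aligner version, genome build, annotation and strand setting were not given in the sources used here. Well names joined columns to labels, which left 9 columns without a labelled well, and these stayed out of every step. Symbols came from GENCODE M21 and promoter windows from RefSeq (GRCm38.p6). The members and gene lists were chosen with earlier results of these data known. For each population the UMIs of its wells were summed and divided by its mouse-gene total (135808 to 834812), without the ERCC spike-ins (6.76% of all UMIs), to give CPM. Intervals at 95% were exact Poisson for sums, exact binomial for shares and for ratios of 2 sums (conditional on their total), and the conditional exact interval for odds ratios. They cover counting error only, with PCR duplicates already collapsed by UMI. A gene entered a pair of populations with at least 10 UMIs in it, and sums under 3 were set to 3 for the 4-fold rule. Thinning used the exact expectation at 2000 UMIs. Named genes were the 8 members, the 5 genes of most similar profile, annotated genes within 200 kb of the cluster, and up to 4 of each list, together with the exceptions of small counts, which were named after their values were seen. The values of 1 list gene are not reported here. Interval coverage and the fold rule were tested on simulated data. The analysis used Python 3.11.15, numpy 2.4.6, pandas 2.3.3, scipy 1.17.1 and matplotlib 3.10.9, with size factors from scran 1.30.0 in R 4.3.3 as an alternative. Wells, scaling, filters, fold, depth and the splits were varied, and the alternatives without well B2, without well A8 for the counts of members and the B220 split, and on wells without a T marker UMI were added after seeing the data.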

Additional observations from a re-analysis of the deposited data

How the results depend on the processing

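Of 176 values recomputed under alternatives, 145 stayed within the counting interval of the reported value or, for counts, within 1.5 times, and none of the ratios whose interval excluded 1 changed direction. With scran size factors, the family was at 1662 CPM in the T lymphocytes, 323 in the LSK cells and 50.1 in the erythroblasts, and the log2 ratios became 3.89 for T lymphocytes over granulocytes, 5.05 for T lymphocytes over erythroblasts, 1.52 for LSK cells over granulocytes and 2.69 for LSK cells over erythroblasts. With Gm42418 and the mitochondrial genes out of the total, the T lymphocytes were at 2464 CPM, the B lymphocytes at 613 and the LSK cells at 508. Without Gimap6, the member with the most UMIs, these 3 were at 1567, 294.5 and 220.4 CPM, with log2 ratios of 2.83 for T lymphocytes over LSK cells and 1.72 for LSK cells over granulocytes. At a fold of at least 2, 6 members were higher in T than in B lymphocytes and 5 than in LSK cells. With at least 50 UMIs in the pair, 0 members were 4-fold higher in B lymphocytes over LSK cells and 0 over granulocytes, since fewer entered, and without well B2 it was 1 over LSK cells. The share of wells with a Gimap UMI thinned to 2000 UMIs was 58.6% in the LSK cells, 18.0% in the granulocytes and 7.23% in the erythroblasts, and at 1000 UMIs it was 82.7% in the T lymphocytes, 29.7% in the B lymphocytes, 36.3%, 9.14% and 3.71%. The wells with the highest over those with the lowest Sca-1 fluorescence, in 3 sets by rank, gave a log2 ratio of 1.04. The 5 genes most like the family shared 1 with the Pearson ranking and 2 with genes of at least 50 UMIs. Where a cause is not in the construction of the alternative, the cause was not tested. No paired analysis was possible because each population is 1 sample. Sums of 34 and 22 UMIs limit what can be said of single members in granulocytes and erythroblasts.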
